A study of Mus musculus with 6 samples.

Results

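A set of 37 genes that supply amino acids and load them onto transfer RNAs was followed in calvaria (skull vault bone) of 13del-tg mice and their wild type littermates at 10 days of age. The set is a list of gene names, with no threshold on measured values, chosen with earlier results of these data known. A gene was measured if a probe set carried its symbol alone, under the present or an older name, and its brightest probe set stood for it. That gave 36 of the 37 genes, Pycr1 being the gene not measured here, and 34 of them reached the signal needed for testing, among 12859 genes tested. Cth and Slc7a11 were too dim. The labels give 3 biological replicates of each genotype, each of parietal bone hybridised to 1 Affymetrix mouse array of 45101 probe sets, and describe the 13del-tg mice as expressing a Col10a1-13del transgene and having bone overgrowth. Wild type mice serve as controls. The promoter that drives the transgene, the number of founder lines and any pooling of animals are not given in the sources used here.

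Cells make serine from a glycolytic intermediate, pass its carbon through glycine and folate, make asparagine and proline, and import the remaining amino acids. Aminoacyl-tRNA synthetases then join each amino acid to its transfer RNA. Many of these genes are known targets of ATF4, the transcription factor whose translation rises when the initiation factor eIF2 is phosphorylated, either in endoplasmic reticulum stress or when amino acids run short. In osteoblasts ATF4 is known to support amino acid import and the synthesis of type I collagen, a protein rich in glycine and proline. The series asks how gene expression differs in skull bone that carries the collagen X transgene.

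The promoters are shown here because ATF4 binds, together with C/EBP partners, to a short element whose core letters are TGATGNAA. RefSeq promoter windows of the GRCm38.p6 build, from 250 bases before to 50 after each transcript start, were given for 27 of the 37 genes. On either strand, 11 of these 27 genes (40.7%) held the letters, against 2.72% of the 10365 tested genes with a window and 4.51% of all 27025 genes in the table. The 11 include Pycr1 and Slc7a11, which were not tested. The set was chosen by name, and many of its genes are known ATF4 targets. A higher share than among all genes was thus built into the choice. Among the roles, the letters stood in 5 of 8 synthetase genes, 3 of 5 genes of the asparagine, sulphur and proline group and 2 of 5 transporter genes. They stood in 1 of 4 stress and mTORC1 genes and in 0 of 5 serine and one-carbon genes. A match is only a run of letters and was not measured as a binding site. The stretches below run 5′ to 3′ along the gene's strand, with the element in capitals, where it reads TTNCATCA when it lies on the other strand.
Asns (chr6:7693214-7693243, minus strand): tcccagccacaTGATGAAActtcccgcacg
Pck2 (chr14:55540152-55540181, plus strand): agccttcaaagTTACATCAgtatcttacag
Slc1a4 (chr11:20332699-20332728, minus strand): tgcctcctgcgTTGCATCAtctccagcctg
Gars1 (chr6:55037960-55037989, plus strand): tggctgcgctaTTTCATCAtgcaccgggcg
Tars1 (chr15:11399655-11399684, minus strand): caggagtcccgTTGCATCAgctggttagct
Yars1 (chr4:129189895-129189924, plus strand): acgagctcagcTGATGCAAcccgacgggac
The element of Asns, the asparagine synthetase gene, reached from base -23 to -16 before the start, and that of Gars1 from -30 to -23. Of the 13 matches, 9 read TGATGCAA. Pycr1, Slc7a11, Vldlr and Iars1 also held the letters, Slc7a11 at a pair of sites (-66 to -59 and -47 to -40).

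**Figure D1:**
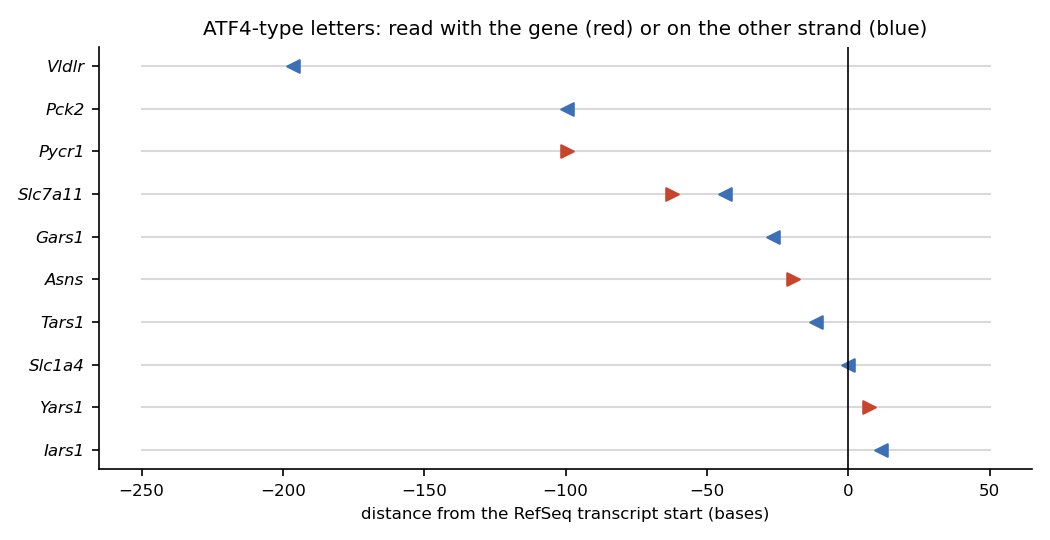
Position of each match to TGATGNAA on an axis of bases from the transcript start, for 10 of the 11 genes that hold it. Red marks point along the gene, blue marks lie on the other strand. The matches lie between base -200 (Vldlr) and base 15 (Iars1), and 7 of these 10 genes have one that ends before the start.

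Control 1 and 13del-tg 1 had the same deposited signal at each of the 45101 probe sets. This single set of values, called the shared array, carries both labels and was left out of the comparison of 13del-tg 2 and 3 with controls 2 and 3. Col10a1, the transgene's gene, had signals of 149.8 and 158.2 in the controls, 15688.7 and 11584.4 in 13del-tg and 152.2 on the shared array, at the level of the controls and against its 13del-tg label. Osteoblast markers were bright on every array, with 8 of 10 listed genes measured, none at 0 and the lowest signal 1518.9. Their summed signal was 174059 and 195470 in the controls and 196152 and 214835 in 13del-tg, higher there by a small margin. Summed signals of 5 other marker lists were apart and lower in 13del-tg. For erythroid markers (6 of 10 genes) they were 15451 and 17692 in the controls and 3360 and 5310 in 13del-tg, and for proliferation markers (6 of 7) 13392 and 12008 against 6878 and 8272. For B cell markers (6 of 7) they were 7000 and 8017 against 2158 and 4262, and for pineal and photoreceptor markers (8 of 9) 4929 and 10327 against 438 and 471. Macrophage sums (7 of 7) were lower by little, 25655 and 26051 against 22295 and 24687, while 4 of the 7 genes had positive differences (median 0.06). Skeletal muscle sums (10 of 10) were 180474 and 31197 in the controls and 258349 and 189068 in 13del-tg. On the shared array, at the level of the controls for Col10a1, the muscle sum (214908) lay between the 13del-tg arrays. The pineal and photoreceptor sum there (661) was close to that of the 13del-tg arrays. Its erythroid (9682), proliferation (10421) and B cell (4820) sums lay between the genotypes, and its macrophage sum (19763) was the lowest. Osteocyte, osteoclast, chondrocyte, neutrophil, endothelial, adipocyte and neural sums overlapped. Gene by gene, differences were negative for 8 of 8 neutrophil markers (median -0.88), 8 of 8 osteoclast markers (-0.36) and 9 of 10 chondrocyte markers (-1.23), and no measured marker was at 0. The part of these shifts in the results below was not tested. Ratios of 3′ to 5′ control probe sets, a sign of RNA integrity, ran from 0.737 to 0.866 for Gapdh and from 1.11 to 1.4 for Actb on the 4 arrays compared, with overlapping groups.

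Across the set the signals in 13del-tg were mostly a little higher, and no gene passed the test. Of the 34 genes tested, 25 had a positive difference, 13del-tg minus control on the log2(signal + 16) scale, with a median of 0.12, where 41.2% of all genes were positive and their median was -0.074. Both 13del-tg arrays lay above both controls for 13 genes of the set (38.2%, against 13.4% of all genes) and below both for 2 (5.88%, against 26.3%). These shares describe the set, and no test set it against other genes. By limma with Benjamini-Hochberg adjustment over all 12859 genes, 0 of the 34 passed an adjusted p of 0.05 in either direction, where 0.0156% of all genes passed as higher and 0.0467% as lower, 0.0622% together. At an unadjusted p under 0.05 there were 2 higher, Psat1 and Eif4ebp1 (against 1.49% of all genes), and 1 lower, Slc38a2 (against 5.31%). An exact two-sided permutation test over 2 arrays against 2 cannot go below p = 0.333 for any gene. Apart from that, the number of arrays limits the precision of every value. In whole bone, fewer cells of a type and less RNA per cell cannot be told apart.

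**Figure D2:**
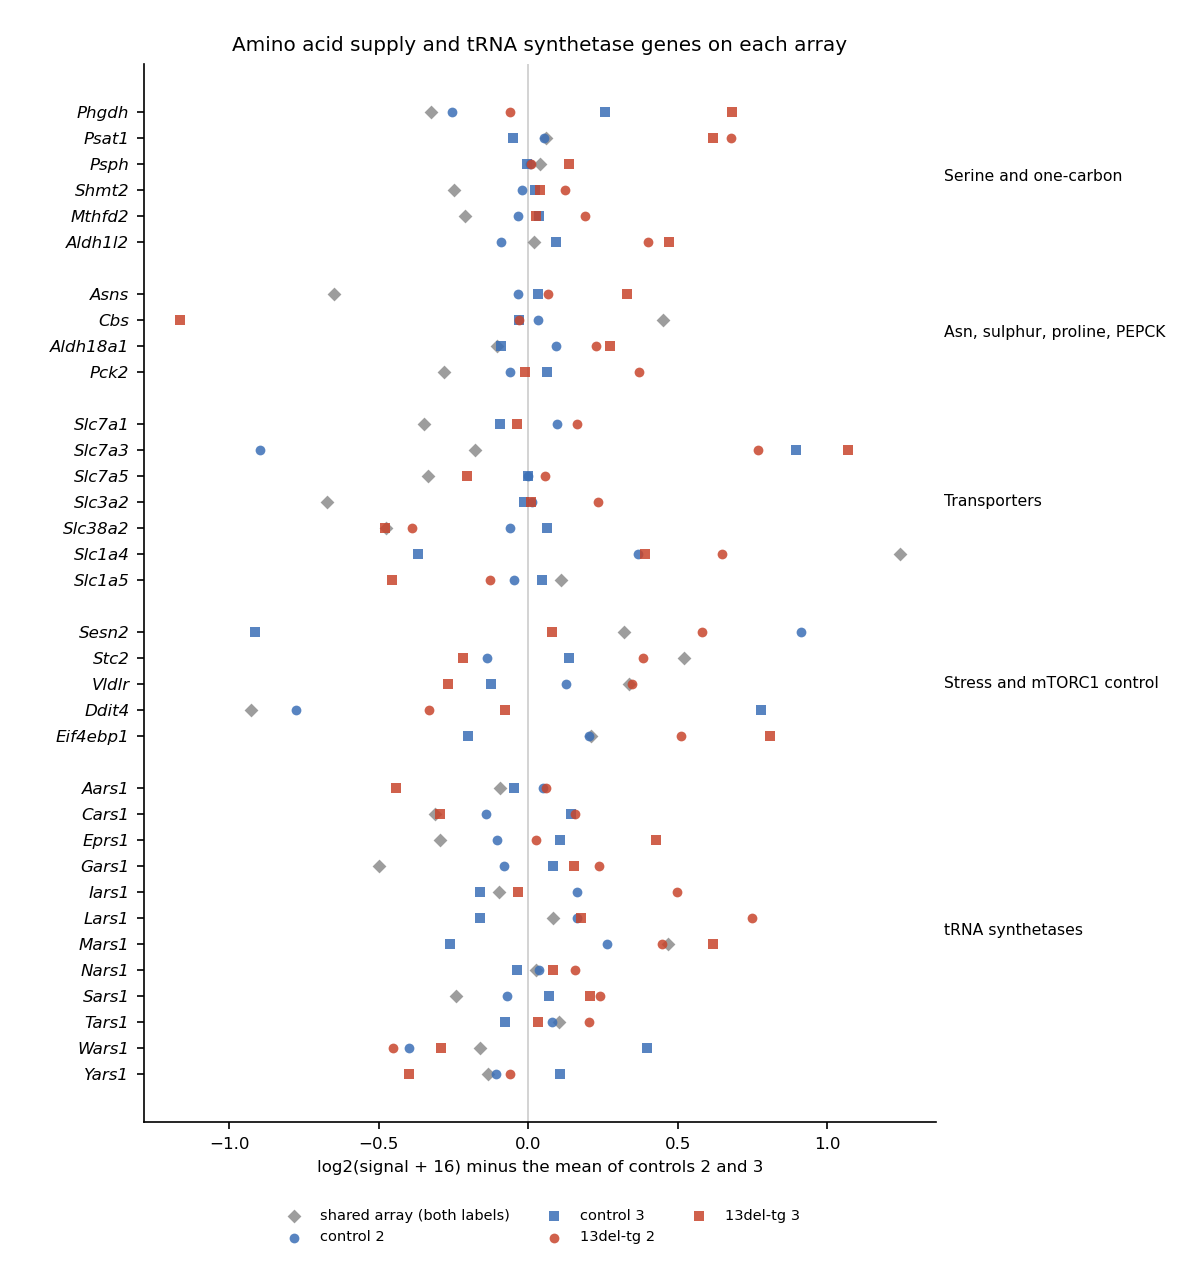
Each of the 34 genes on each array, as log2(signal + 16) minus the mean of controls 2 and 3 (x axis), grouped by role. Blue marks are controls, red marks 13del-tg and grey diamonds the shared array. The red marks of Psat1 and Eif4ebp1 lie to the right of both blue ones and those of Slc38a2 to the left, while Ddit4 and Sesn2 show controls that differ by 1.55 and 1.83.

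The array medians of the set, against the mean of the controls, were -0.0106 and 0.0106 in controls 2 and 3, 0.2 in 13del-tg 2 and 0.0349 in 13del-tg 3. Over all genes they were -0.053 in 13del-tg 2 and -0.0953 in 13del-tg 3. On the shared array the set's median was -0.12, below all 4 others. With arrays centred on their medians, all genes had a median of 0.11 and the set one of 0.3. Centring shifts all genes of an array alike, so it could not change the set's distance from them, which stayed at 0.19. With quantile normalization that distance was 0.18. Over all genes, centring put 3 past the threshold as higher and 27 as lower, where the scaling as deposited gave 2 and 6. Signs changed for Cars1 under centring and under quantile normalization, and for Slc7a5 under centring. Of the 34 genes, 8 had an upward difference larger than the gap between replicates within either genotype, where 7.66% of all genes had one. For 1 gene such a difference was downward, where 17.8% of all genes had one. Those upward were Psat1, Aldh1l2, Aldh18a1, Eif4ebp1, Gars1, Mars1, Nars1 and Sars1, and Slc38a2 was the gene downward. Of 20 genes with several probe sets bright enough to test, 7 had probe sets of both signs.

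All 6 genes of serine synthesis and the mitochondrial one-carbon pathway had positive differences, with a median of 0.21. In 4 of them (66.7%, against 13.4% of all genes) the 13del-tg arrays lay above both controls. Psat1, the phosphoserine aminotransferase of serine synthesis, had signals of 1515.3 and 1408.9 in controls 2 and 3, 2348.5 and 2250.2 in 13del-tg 2 and 3, and 1522.8 on the shared array. Both 13del-tg arrays stood well apart from the other 3, and replicates within a genotype were close. The means were 1462 ± 75.2 and 2299 ± 69.5 (SD, n = 2 each). This is 1.57-fold, or 0.65 as a log2 difference with SE 0.19, with an unadjusted p of 0.0101 and a limma adjusted p of 0.614. The other, dimmer probe set of Psat1 gave 692.3 and 356.9 in the controls against 1186.3 and 940.2 in 13del-tg, a difference of 1.06. There the shared array, at 954.7, lay between the 13del-tg arrays. The Psat1 difference was 0.63 when the shared array was placed among the controls (limma adjusted p = 0.695) and 0.45 with it as 13del-tg (0.716), and without 1 array at a time it ran from 0.6 to 0.7.

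Aldh1l2, a mitochondrial dehydrogenase that oxidises formyl-tetrahydrofolate, had signals of 1727.3 and 1962.9 in the controls and 2433.9 and 2555.4 in 13del-tg, with 1864.8 on the shared array. Its groups did not overlap and the shared array lay between the controls. The log2 difference was 0.43 (SE 0.19), with a limma adjusted p of 0.715. Phgdh, the dehydrogenase that opens serine synthesis, had 1564.6 and 2236.9 in the controls and 1793.3 and 3006.9 in 13del-tg, which overlapped. Replicate 3 was the higher in each genotype, and the difference was 0.31 (SE 0.3), with 1 of its 4 probe sets negative. Psph, the phosphatase that releases serine, had 484.7 and 480.8 in the controls and 486 and 532.5 in 13del-tg, so its groups, though apart, differed by only 0.0733 (SE 0.22). Shmt2, which turns serine into glycine in mitochondria, had 973.6 and 1003.1 in the controls and 1077.4 and 1015 in 13del-tg, a difference of 0.0803 (SE 0.2), which turned to -0.19 when the mean of its probe sets was used. Mthfd2, the next enzyme on that path, had 0.11 (SE 0.21) with overlapping groups. The larger differences of this pathway were thus those of Psat1 and Aldh1l2.

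RefSeq gives a pair of starts for Psat1, and neither window held TGATGNAA. The 250 bases before the upstream start are shown, with those before the start of Slc38a2. These genes had among the smallest unadjusted p-values of the set, and their windows held no match. Bases outside the windows were not searched. No capitals appear because there is no match.
Psat1 (chr19:15925060-15925309, minus strand): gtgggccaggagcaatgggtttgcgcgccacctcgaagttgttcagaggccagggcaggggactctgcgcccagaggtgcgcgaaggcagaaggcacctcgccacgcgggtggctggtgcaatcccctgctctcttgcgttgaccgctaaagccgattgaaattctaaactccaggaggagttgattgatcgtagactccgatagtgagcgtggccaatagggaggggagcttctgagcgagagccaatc
Slc38a2 (chr15:96699729-96699978, minus strand): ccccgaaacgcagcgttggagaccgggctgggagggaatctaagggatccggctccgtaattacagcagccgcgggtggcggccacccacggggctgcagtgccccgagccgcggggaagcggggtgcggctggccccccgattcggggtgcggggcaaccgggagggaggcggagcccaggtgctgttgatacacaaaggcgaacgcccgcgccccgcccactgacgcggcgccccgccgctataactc
Over the genes tested, the 9 with the letters had a median difference of 0.18 (from -0.23 to 0.52, 7 positive). The 16 with a window but no letters had a median of 0.11 (from -0.6 to 0.65, 13 positive). The ranges overlapped widely.

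Asparagine, proline and phosphoenolpyruvate enzymes had small positive differences. Asns had signals of 2292.7 and 2400.9 in the controls and 2455.5 and 2955.6 in 13del-tg. Both 13del-tg arrays were above both controls, by a small margin for 13del-tg 2, and the shared array was far below all 4, at 1488.8. The difference was 0.2 (SE 0.19, limma adjusted p = 0.802), and it was 0.42 with the shared array as a control and -0.0847 with it as 13del-tg. Aldh18a1, which starts proline synthesis from glutamate, had 2368 and 2080.1 in the controls and 2601.1 and 2684.1 in 13del-tg, a difference of 0.25 (SE 0.19). Pck2, the mitochondrial phosphoenolpyruvate carboxykinase, had 0.18 (SE 0.21) with overlapping groups. Cbs, which starts the conversion of homocysteine to cysteine, had 159.5 and 151.9 in the controls and 152.1 and 60.6 in 13del-tg. Its 13del-tg arrays differed from each other by 1.13, more than the difference of -0.6 (SE 0.44) between the genotypes. Without 13del-tg 3 that difference was -0.0302, and without 13del-tg 2 it was -1.16. Cth, the next enzyme of that route, had signals from 2.9 to 50.1 on the 5 arrays, all under the level of 61.9 that testing required.

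**Figure D3:**
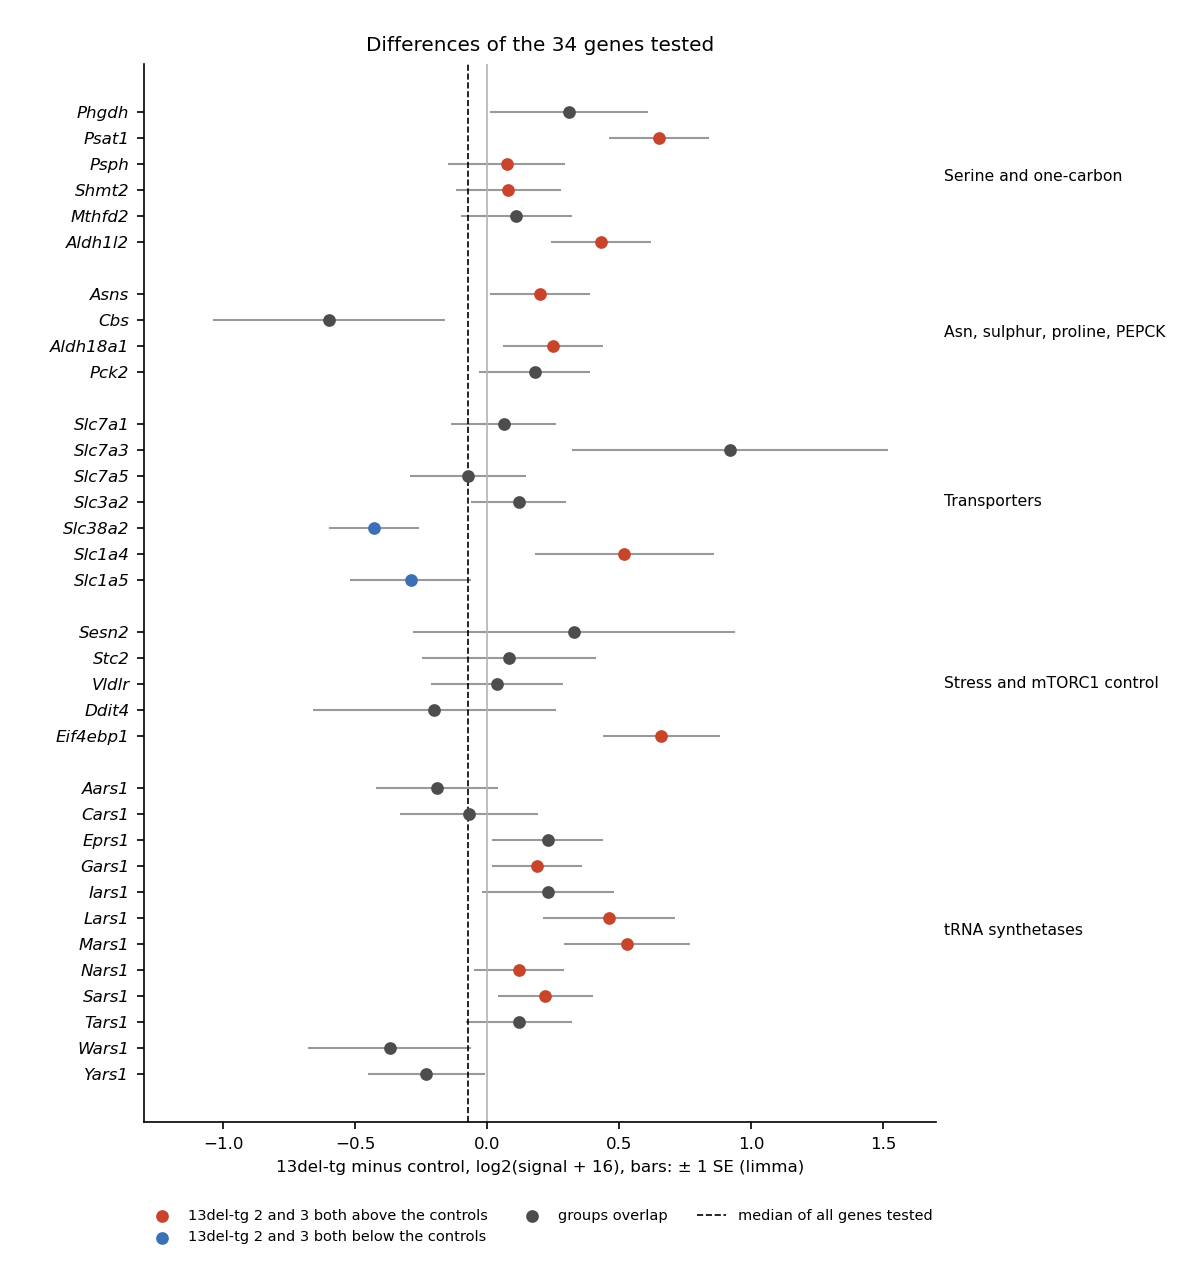
Difference of each of the 34 genes, 13del-tg minus control on the log2(signal + 16) scale (x axis), with bars of 1 SE from limma, grouped by role. Red points mark the 13 genes with both 13del-tg arrays above both controls and blue points the 2 below. The dashed line is the median of all genes, -0.074, and no gene passed the adjusted threshold.

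Transporters were divided, with 4 positive and 3 negative differences of 7 tested and a median of 0.062. Slc38a2, the sodium-coupled neutral amino acid transporter SNAT2, had signals of 9269.5 and 10111.1 in the controls and 7392.3 and 6934.8 in 13del-tg, with 6951.7 on the shared array. The shared array sat with the 13del-tg pair here, and the groups did not overlap. Control arrays averaged 9690 ± 595 and 13del-tg arrays 7164 ± 324 (SD, n = 2 each). On the log2 scale that is a difference of -0.43 (SE 0.17), for which limma gave an unadjusted p of 0.0374 and an adjusted p of 0.715. The next brightest probe set gave 1252.5 and 1496.2 against 751.8 and 728.7, a difference of -0.87. The dimmest gave -0.37 with overlapping groups. With arrays centred on the median the difference was -0.25 (unadjusted p = 0.401), and with the shared array as a control it was -0.28. Slc1a5, the glutamine and neutral amino acid exchanger ASCT2, had 672.3 and 718.3 in the controls and 634.3 and 502.8 in 13del-tg, a difference of -0.29 (SE 0.23), with the shared array above all 4 at 750.6.

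Its relative Slc1a4, which carries serine and alanine, had 258.8 and 149.2 in the controls and 317.9 and 263 in 13del-tg. The groups were apart by a small margin, and the shared array was the highest of all at 488.1. The difference of 0.52 (SE 0.34) was -0.00314 over the mean of its 3 probe sets and 0.1 with the shared array as a control. It was 0.15 without control 3 and 0.89 without control 2. Slc7a3, a carrier of arginine and lysine, had a difference of 0.92 (SE 0.6), from 29.2 and 140.5 in the controls and 127.1 and 160.6 in 13del-tg. It rested on the single low control, under the testing level of 61.9, since it was 0.0226 without control 2. With a pseudocount of 64 it was 0.59. Slc7a5 and Slc3a2, the chains of the LAT1 exchanger for large neutral amino acids, had -0.0738 (SE 0.22) and 0.12 (SE 0.18). Slc7a1, another carrier of basic amino acids, had 0.062 (SE 0.2), and all 3 overlapped. Slc7a11, the cystine carrier, was at 55.4 and 46.9 in the controls, 75 and 53.2 in 13del-tg and 14.3 on the shared array, of which 13del-tg 2 alone was above the testing level. It was not tested.

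Of 5 genes that respond to stress and mostly restrain growth signalling, Eif4ebp1 stood apart. It encodes the protein 4E-BP1, which binds the cap-binding factor eIF4E and is released from it by mTORC1 phosphorylation. Signals were 3617.7 and 2727.1 in the controls, 4485.9 and 5510 in 13del-tg and 3638.5 on the shared array. Both 13del-tg arrays were above the other 3, and the shared array was close to control 2. Means were 3172 ± 630 and 4998 ± 724 (SD, n = 2 each). This is 1.58-fold, or 0.66 as a log2 difference with SE 0.22, with an unadjusted p of 0.019 and a limma adjusted p of 0.697. The next brightest probe set gave 2590.9 and 1884.9 against 3489.7 and 3679.1, a difference of 0.69. The dimmest gave -0.0832 with overlapping groups.

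The other 4 had overlapping groups on the brightest probe set. Ddit4, an mTORC1 inhibitor induced by stress and low oxygen, had 1152.8 and 3413.3 in the controls and 1573.9 and 1881.7 in 13del-tg. The controls lay on either side of both 13del-tg arrays, so the difference of -0.2 (SE 0.46) turned to 0.57 without control 3. Sesn2, the leucine sensor sestrin, had 198.1 and 44.4 in the controls against 154 and 104.1, a difference of 0.33 (SE 0.61). Stc2, which encodes a stanniocalcin, a secreted glycoprotein, had 0.0839 (SE 0.33) on its brightest probe set. Its other probe sets separated the groups, with 115.8 and 88.8 in the controls against 238.9 and 130.8 in 13del-tg (0.72) and 115.2 and 126.8 against 177.6 and 170.5 (0.47). Vldlr, a lipoprotein receptor, had 0.0389 (SE 0.25), and 1 of its 6 probe sets was negative.

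**Figure D4:**
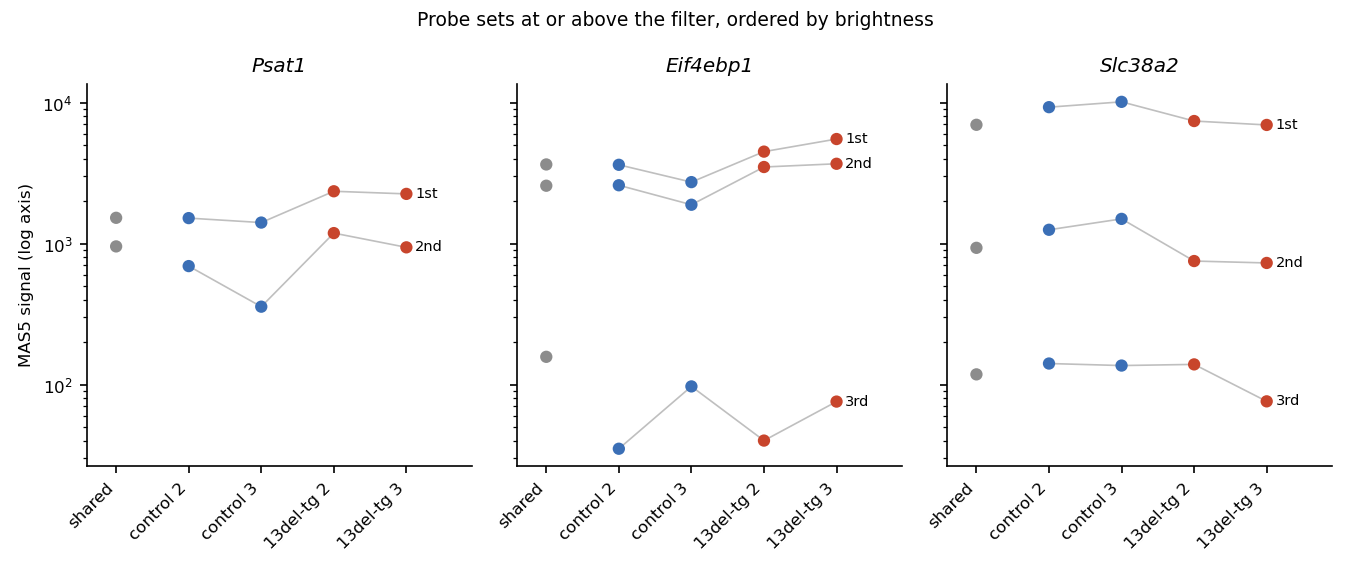
Signals (log axis) of the probe sets of Psat1, Eif4ebp1 and Slc38a2 that were bright enough to test, on the shared array (grey), controls 2 and 3 (blue) and 13del-tg 2 and 3 (red), with lines joining 1 probe set over the 4 arrays compared. The brighter pair of probe sets of each gene separates the genotypes, and the dimmest of Eif4ebp1 and of Slc38a2 does not.

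Among the 12 cytosolic tRNA synthetases, 8 had positive differences and 4 negative, with a median of 0.16. In 5 of them both 13del-tg arrays were above both controls (41.7%, against 13.4% of all genes), and in 0 below (against 26.3%). Mars1, the methionyl enzyme, had a difference of 0.53 (SE 0.24, limma adjusted p = 0.715), from 1587.9 and 1098.5 in the controls and 1806.1 and 2033.7 in 13del-tg. The shared array, at 1833.1, lay between the 13del-tg arrays, and the difference was 0.27 without control 3 and 0.79 without control 2. Lars1, the leucyl enzyme, had 1737.8 and 1385 against 2617.9 and 1756.4, a difference of 0.46 (SE 0.25) in which 13del-tg 3 exceeded control 2 by little. It was 0.18 without 13del-tg 2, 0.3 without control 3 and 0.75 without 13del-tg 3. Sars1, the seryl enzyme, had 2642.8 and 2912.8 against 3280.9 and 3201.9, a difference of 0.22 (SE 0.18), with close replicates, which was 0.3 with the shared array as a control and 0.0684 with it as 13del-tg. Gars1, the glycyl enzyme, had 5082.1 and 5689.1 against 6337.7 and 5973.4, a difference of 0.19 (SE 0.17). The shared array, at 3797.3, was below all 4, and the difference was 0.36 with it as a control and -0.0374 with it as 13del-tg. Nars1, the asparaginyl enzyme, had 4121 and 3915.7 against 4473.3 and 4255.5, a difference of 0.12 (SE 0.17). Its other probe set gave 2963.1 and 2981 against 3518.9 and 2547.7, a difference of 0.0108 with overlapping groups.

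The remaining synthetases overlapped between genotypes. Positive differences were 0.23 for both Iars1 (isoleucyl, SE 0.25) and Eprs1 (glutamyl-prolyl, SE 0.21), and 0.12 for Tars1 (threonyl, SE 0.2). Negative ones were -0.37 for Wars1 (tryptophanyl, SE 0.31), -0.23 for Yars1 (tyrosyl, SE 0.22), -0.19 for Aars1 (alanyl, SE 0.23) and -0.0694 for Cars1 (cysteinyl, SE 0.26). Wars1 had 415.2 and 733.1 in the controls and 399.6 and 448.8 in 13del-tg, and its difference was 0.0275 without control 3. Its other 3 probe sets did not share the sign of the brightest: they had 0.2, 0.00426 and 0.0467, all with overlapping groups.

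Wider lists, chosen by name with earlier results of these data known, give the setting. Of the other cytosolic synthetases and their scaffold proteins, 7 of 10 were positive (median 0.0661), and of the mitochondrial synthetases 6 of 15 (median -0.0133). In neither list did a gene pass, and none had an unadjusted limma p under 0.05. Other enzymes of amino acid metabolism had 11 of 20 positive with a median of 0.0557. Of them Glul, glutamine synthetase, had the smallest unadjusted p (0.0173), with signals of 3401.4 and 3131.1 in the controls and 2105.4 and 2299.3 in 13del-tg and a difference of -0.57 (SE 0.18, limma adjusted p = 0.686). Gpt2, an alanine aminotransferase of mitochondria, had 0.77 (SE 0.35), and its cytosolic relative Gpt -0.63 (SE 0.31). Both were highest on the shared array, at 689.2 and 538.6.

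Of the other amino acid transporters, 17 of 24 had negative differences (70.8%, against 58.8% of all genes), with a median of -0.24. For 9 of them the signal was lower on 13del-tg 2 and 3 than on either control (37.5%, against 26.3% of all genes). Slc38a5, a glutamine transporter, had signals of 423.3 and 820.1 in the controls, 45.8 and 187.5 in 13del-tg and 302.2 on the shared array. Its groups did not overlap, and the difference was -2.43 (SE 0.58, limma adjusted p = 0.493). Slc38a1, the neutral transporter SNAT1, had -0.77 (SE 0.26), and Slc6a6, the taurine transporter, -0.73 (SE 0.22). The summed erythroid, B cell and proliferation markers given above were lower on the same 13del-tg arrays, and their part in these differences was not tested.

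A list of eIF2 kinases and phosphatase subunits, ATF4, its partners and other stress genes had 10 of 18 positive and a median of 0.17. Unadjusted p-values were under 0.05 for 3 of them, all with positive differences (Atf3, Nupr1 and Ddit3), where 1.49% of all genes were higher at that level and 5.31% lower. The 8 negative differences reached down to -0.94. On this list, both 13del-tg arrays lay above both controls for 7 genes (38.9%, against 13.4% of all genes). They lay below both for 2 (11.1%, against 26.3%). Atf4 itself had signals of 6918.3 and 7572.3 in the controls and 8013.7 and 8278.6 in 13del-tg, a difference of 0.17 (SE 0.17, limma adjusted p = 0.804), and ATF4 is known to be controlled mainly through translation. Among genes that ATF4 is known to induce along with the set, Atf3 had 98.4 and 139.4 against 442.5 and 696.6, a difference of 2.1 (SE 0.33, limma adjusted p = 0.161). Nupr1, a stress-induced chromatin protein, had 0.86 (SE 0.18), Ddit3, which encodes CHOP, 0.87 (SE 0.26), Trib3 0.69 (SE 0.33) and Chac1 0.46 (SE 0.26). In each of these the 13del-tg arrays were above both controls, and none passed over all genes. They are only part of the list, and the 8 genes of it with negative differences are not among them. The differences of Psat1 and Eif4ebp1, 0.65 and 0.66, were smaller than those of Atf3, Ddit3 and Nupr1, and the synthetases of the set lay between -0.37 and 0.53. No test compared these genes with each other.

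**Figure D5:**
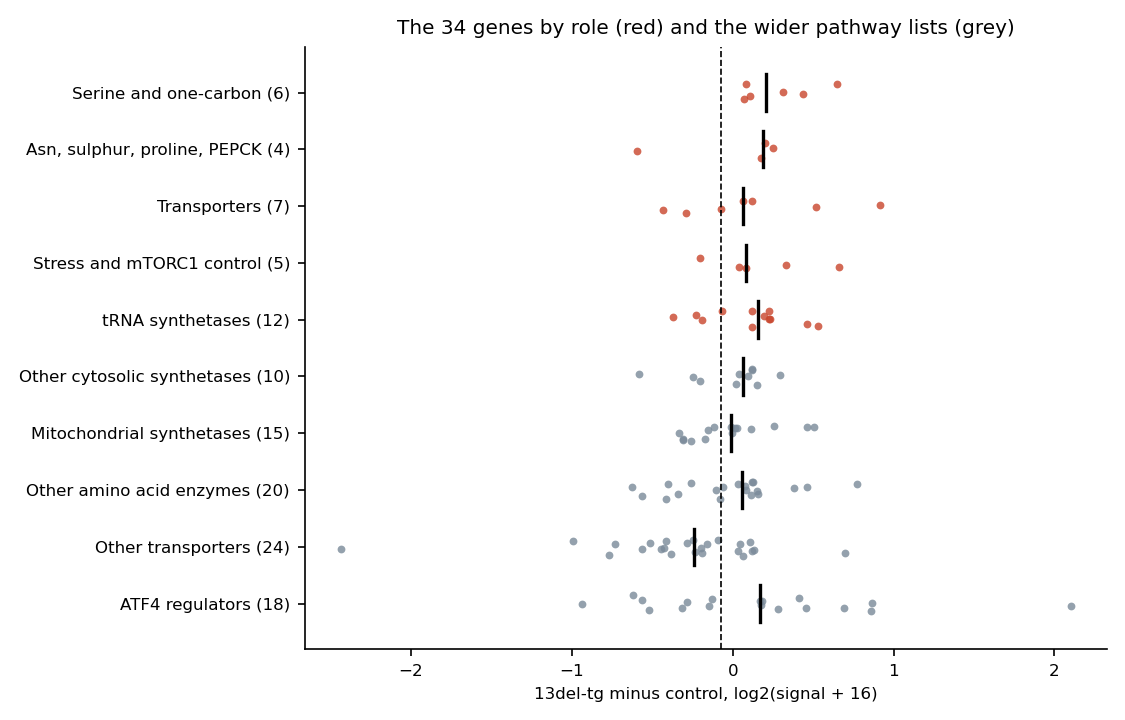
Difference of every tested gene, 13del-tg minus control on the log2(signal + 16) scale (x axis), for the 5 roles of the set (red) and the 5 wider lists (grey), with the number of genes in brackets. Black bars are list medians and the dashed line is the median of all genes. The serine and one-carbon genes lie at 0.07 or above, and the other transporters reach down to -2.43.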

How the data were processed

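Signals were read from 6 deposited columns, 3 per genotype. The deposited intensities are linear, with 1 value for each probe set on each array. MAS5 is named, without a version, in the submitters' processing notes. Their trimmed mean, leaving out 2% at each end, was 500.003 on every array. Control 1 and 13del-tg 1 held the same values, and this array was left out. Probe sets were named from the platform annotation: 34945 had 1 symbol, 932 several and 9160 none here, and 64 control probe sets were set aside. Of those with 1 symbol, 34741 matched the RefSeq table (GRCm38.p6) by gene number.

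Values were log2(signal + 16) with no further normalization. A fold on this scale understates changes of dim genes. Probe sets at or above the 40th percentile of the mean over the 5 distinct arrays (6.28, a signal of 61.9) were kept, 27022 in all, with the brightest per gene. limma 3.58.1 in R 4.3.3 (lmFit, eBayes with trend, two-sided, Benjamini-Hochberg over all genes) had 2 residual degrees of freedom and a prior worth 5.01, with a median SE of 0.26. The code was tested on simulated arrays. No batch or scan date was used.

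The genes and lists were chosen with earlier results of these data known. Values on every array are given for genes of the set with an unadjusted p under 0.05, genes with separated groups and the extremes of each role, and for some others. The smallest 3 unadjusted p-values guided the naming in wider lists. The promoter stretch of 1 gene is not reported here.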

Additional observations from a re-analysis of the deposited data

Results flagged for a closer look

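The shared array took no part in the comparison. On the brightest probe set, 3 genes of the set were brighter on it than on both controls. The excess was larger than the controls' gap and the median SE of 0.26. Cbs had 218.7, against 159.5 and 151.9 in the controls and 152.1 and 60.6 in 13del-tg. Slc1a4 had 488.1, against 258.8 and 149.2 in the controls and 317.9 and 263 in 13del-tg. Stc2 had 277.3, against 169.9 and 208.8 in the controls and 250.9 and 159.9 in 13del-tg. On these brightest probe sets the shared array was above all 4 other arrays. Dimmer probe sets did not share this: the shared array was below all 4 at 148.1 for Slc1a4 and at 105.7 for Stc2. It was within their range at 164.6 for Slc1a4 and at 156.7 for Stc2.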

How the results depend on the processing

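Of 17 alternatives, 16 left 0 of the set past the threshold, and the replicate block left 1, Eif4ebp1 (limma adjusted p = 0.0291, and adjusted p from 0.263 to 1 under the 16 others). Replicate numbers are shared between genotypes, but the labels do not say that they pair animals. Deviations of control 2 and 13del-tg 2 from their group means correlated at 0.273 across 12859 genes. With the replicate block 271 genes were higher and 338 lower over all genes, and 6 of the set were higher at an unadjusted limma p under 0.05. That fit leaves fewer residual degrees of freedom than the 2 of the main fit, so its p-values lean more on variance shared across genes. With 2 arrays per genotype, the number of arrays limits the precision.

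Over all genes, 2 higher and 6 lower became 1 and 1 with a pseudocount of 1, a 60th percentile filter or quantile normalization, and 1 and 2 with a pseudocount of 64. They became 1 and 0 without a filter (265 and 930 at an unadjusted limma p under 0.05), without the trend (149 and 781) or with the shared array as control (150 and 648). With it as 13del-tg they were 0 and 7 (362 and 534), and with all 6 columns 0 and 0 (17 and 175). Robust eBayes gave 23 lower and centring 27. Leaving out 1 array gave 1 to 182 higher and 0 to 50 lower: 182 and 50 without control 2, 2 and 6 without control 3, 2 and 1 without 13del-tg 2, and 1 and 0 without 13del-tg 3 (126 and 535 at an unadjusted limma p under 0.05).

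Genes of the set at an unadjusted p under 0.05, 2 higher and 1 lower, became 1 higher with the mean of probe sets or the shared array as 13del-tg, and 0 higher and 0 lower with all 6 columns. With centring, without the trend or with the shared array as control, 0 were lower. Leaving out 1 array gave 1 to 5 higher and 0 to 2 lower: 5 and 2 without control 2, 1 and 0 without control 3, and 2 and 0 without 13del-tg 3. The median of the set was 0.3 with centring and ran from 0.0349, without 13del-tg 2, to 0.2.

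Filter changes, no trend, robust eBayes and the replicate block left the difference of a named gene as it was. Using every column as labelled put the shared array in both groups, which only shrank the difference. No sign could turn under these settings, so their values, though counted here, do not test the signs. Of 321 values of 19 named genes, 313 kept their sign. Those that turned were Shmt2 (-0.19) and Slc1a4 (-0.00314) with the mean of probe sets, Ddit4 (0.1) with the shared array as control, and Asns (-0.0847), Gars1 (-0.0374) and Shmt2 (-0.0287) with it as 13del-tg. Without control 3, Ddit4 had 0.57 and Wars1 0.0275, in ranges from -0.98 and -0.77. The cause was not tested. Counting bases before the start alone, 8 genes held TGATGNAA, not 11.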

Other observations

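The position of the shared array was recorded for the 34 genes tested. It lay below all 4 other arrays for 14 of them, above all 4 for 4, and within their range for 16. By role its median against the mean of the controls was -0.34 for transporters, -0.19 for the asparagine, sulphur and proline group, -0.12 for synthetases, -0.0975 for serine and one-carbon genes and 0.32 for the stress and mTORC1 group. Slc3a2, at 2000.9, had a log2 difference of -0.67 from the mean of the controls, and Asns one of -0.65. Atf4 was also lowest there, at 5708.1. Its summed osteoblast signal, 124810, was below that of all 4 other arrays.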
